A study of Mus musculus with 10 samples.

Results

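The nuclear-encoded oxidative phosphorylation subunits were taken from the count table by gene symbol. A gene was a member if its symbol began with *Ndufa*, *Ndufb*, *Ndufc*, *Ndufs*, *Ndufv*, *Uqcr*, *Cox4*, *Cox5*, *Cox6*, *Cox7*, *Cox8* or *Atp5*, or was *Sdha*, *Sdhb*, *Sdhc* or *Sdhd*, and names beginning with *Ndufaf* were left out. This gave 85 of the 24453 genes in the table. By symbol, 38 belonged to complex I, 4 to complex II, 8 to complex III, 18 to complex IV and 17 to complex V. The name rule also admitted *Atp5s* and *Atp5sl*, whose products are not subunits of the enzyme.

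The study compared 2 types of layer 5 intratelencephalic projection neuron (IT-PN), cells that send axons across the corpus callosum to the opposite motor cortex. The animals were male hemizygous *Fezf2-Gfp* reporter mice of the transgenic line (Zfp312-EGFP)CO61GsatMmnc, on a Swiss Webster background. They received a retrograde tracer, cholera toxin subunit b (CTB) coupled to an Alexa dye, in left M1 at P23 to P25. Layer 5 of right M1 was then collected. The age at collection for sorting is not stated in the methods. P28 to P32 follows if the interval after injection that the authors give for histology also held here. Cells carrying GFP and tracer formed the *Fezf2+ve* IT-PNs, and cells carrying tracer alone formed the *Fezf2−ve* IT-PNs. There were 5 animals, each giving 1 library of each type, so that the 10 libraries fall into 5 pairs. All animals carried the same reporter and received the same tracer, and the types were defined by the fluorescence gate. By the authors' account, RT-PCR found endogenous *Fezf2* in the doubly labelled fractions and not in those with tracer alone.

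Oxidative phosphorylation takes place in the inner mitochondrial membrane. Complexes I and II pass electrons from NADH and succinate to ubiquinone, complex III passes them to cytochrome c and complex IV to oxygen, and complex V uses the proton gradient built by complexes I, III and IV to make ATP. Neurons meet most of their energy demand in this way, and most subunits are encoded in the nucleus, with a small set encoded by the mitochondrial genome.

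Depth was low in every library. Reads assigned to genes ranged from 89138 in *Fezf2−ve* 2 to 217738 in *Fezf2−ve* 5, and between 3990 and 7918 genes had a read. Members held 3391 of the 1553687 gene reads, or 0.218%. At least 1 read was found for 79 of the 85 members, with a median of 20 reads over the 10 libraries, and 25 members, including those without a read, had fewer than 10. A count of 0 allows up to 3 reads, which corresponds to between 13.8 and 33.7 CPM (counts scaled to equal library size) depending on the library. The reads were amplified by PCR and carry no named molecular identifiers, so that intervals and floors here cover counting error only.

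The content of the libraries was examined before the members were compared. The 10 most abundant genes took between 13.3% and 57.1% of gene reads, the highest share being in *Fezf2+ve* 1, where *Sema6a* alone had 35201 reads. ERCC spike-in transcripts made up between 2.79% and 46.7% of the sum of gene and ERCC reads, again highest in *Fezf2+ve* 1. *Fezf2* itself had 1 read, in *Fezf2+ve* 5, and 0 in the other 9 libraries.

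Marker genes of other cell types differed between the types. The 12 microglial markers, all detected, summed to 245, 177, 93.2, 66.0 and 123 CPM over animals 1 to 5 in *Fezf2+ve* and to 6410, 4630, 6840, 1640 and 3970 CPM in *Fezf2−ve*. Every *Fezf2−ve* sum thus lay above every *Fezf2+ve* sum. The most abundant marker was the protease gene *Ctss*, with 817 reads in all. In the edgeR fit given below, 10 of the 12 were lower in *Fezf2+ve* at an unadjusted p under 0.05. Over all tested genes that share was 2.27%, and 0 of the 12 were called at a false discovery rate of 0.1. Of the 10, *C1qa*, *C1qb*, *Tyrobp*, *Siglech* and *Tmem119* reached the 10 CPM of that fit's filter in *Fezf2−ve* libraries only. They were tested through the type where they were high, and nothing is concluded from their p. The 5 erythrocyte markers, led by *Hbb-bs* with 410 reads, summed to 872, 102, 16.9, 0.0 and 0.0 CPM in *Fezf2+ve* and to 4520, 3300, 273, 289 and 9.19 CPM in *Fezf2−ve*, higher in the *Fezf2−ve* library of each animal, with overlapping groups. *Hba-a1* and *Hba-a2* had identical counts in every library, so that these sums may count the same reads 2 times.

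In the other marker lists given here the types overlapped. Of 9 excitatory neuron markers 8 were detected, *Tbr1* was at 0 and *Rorb* was the most abundant, and over animals 1 to 5 their sum was 356, 92.9, 119, 323 and 93.4 CPM in *Fezf2+ve* and 155, 89.7, 7090, 56.8 and 4.59 in *Fezf2−ve*. Animal 3 apart, *Fezf2+ve* was the higher, in 4 of 5 animals. Single genes carried these sums in some libraries. *Fezf2−ve* 3 held 646 of the 728 reads of *Rorb* and 529 of the 588 of *Camk2a*. In *Fezf2+ve* 4, 48 of the 49 reads on the list were on *Rorb*. The astrocyte list, with *Gfap* at 0 and *Slc1a2* the most abundant of 6 genes, summed to 542, 7320, 407, 1680 and 339 CPM in *Fezf2+ve* and to 476, 202, 65.2, 3780 and 23.0 in *Fezf2−ve*, also higher in *Fezf2+ve* in 4 of 5 animals, the exception being animal 4. The 2 genes of oligodendrocyte precursors, led by *Pdgfra*, gave 52.8 to 2150 and 75.7 to 1120 CPM, and the 3 endothelial genes, led by *Flt1*, gave 0.0 to 50.8 and 5.93 to 41.3 CPM. Interneuron markers had 11 reads in all, with *Slc32a1*, *Pvalb* and *Vip* at 0. Over animals 1 to 5 these were 0, 0, 0, 0 and 1 in *Fezf2+ve* and 0, 4, 2, 1 and 3 in *Fezf2−ve*. By CPM, *Fezf2+ve* was the higher in 0 of 5 animals. The part of any of these cell types in the results on the members was not tested.

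The first comparison asked what share of gene reads fell on the members in each type. In *Fezf2+ve* IT-PNs the share was 0.867%, 0.283%, 0.379%, 0.0501% and 0.257% in animals 1 to 5, and in *Fezf2−ve* IT-PNs it was 0.229%, 0.230%, 0.144%, 0.0468% and 0.0386%. The highest share, in *Fezf2+ve* 1, had an exact Clopper-Pearson 95% interval from 0.815% to 0.921%, and the lowest, in *Fezf2−ve* 5, from 0.0308% to 0.0478%. In animals 2 and 4 the intervals of the 2 types overlapped. They were 0.252% to 0.317% (*Fezf2+ve*) and 0.2% to 0.264% (*Fezf2−ve*) in animal 2. In animal 4 they were 0.0395% to 0.0627% and 0.0381% to 0.057%. Both libraries of animal 4 and the *Fezf2−ve* library of animal 5 were low, *Fezf2+ve* 1 was far above the rest, and the types overlapped.

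**Figure D1:**
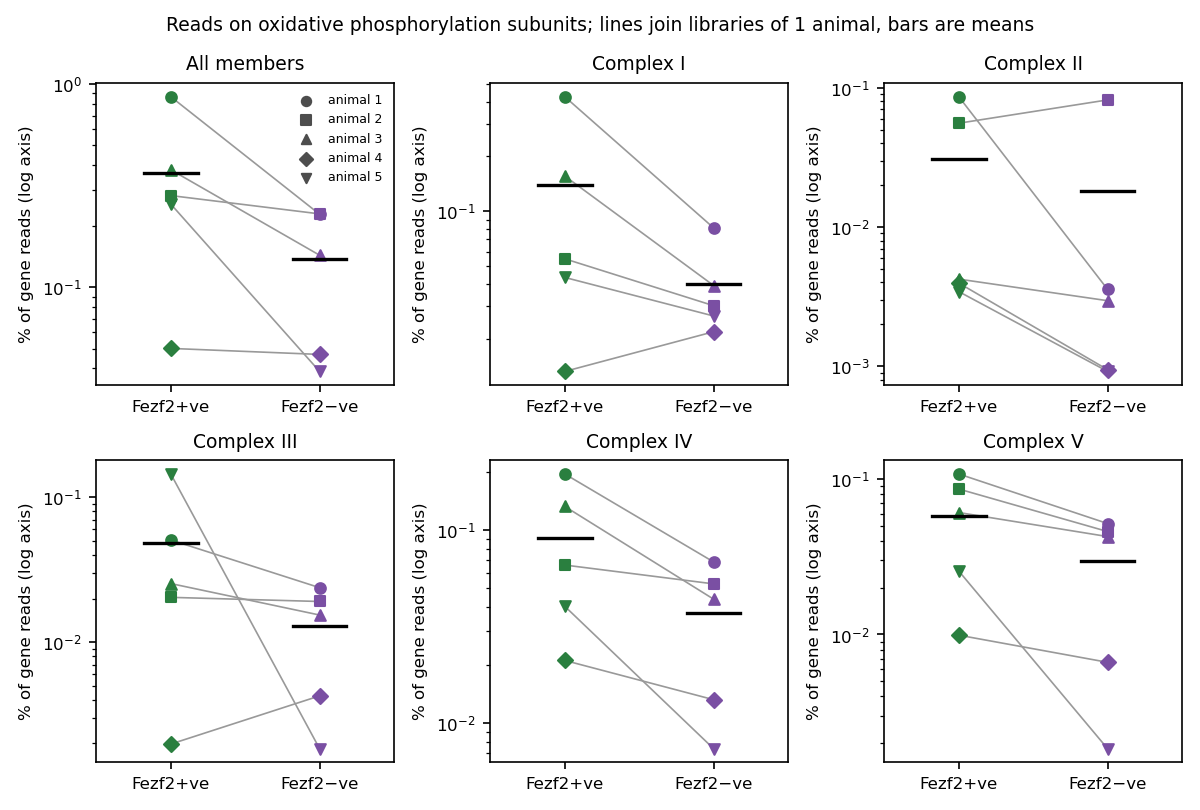
Percentage of gene reads on all members and on the members of each complex (log axes), for *Fezf2+ve* (green) and *Fezf2−ve* (purple) libraries, with lines joining the 2 libraries of an animal and black bars at the means of 5 libraries. The all-member line falls from *Fezf2+ve* to *Fezf2−ve* in 5 of 5 animals, by little in animals 2 and 4, and in complexes I, II and III 1 animal goes the other way.

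The mean share was 0.367% ± 0.304 (SD, n = 5) for *Fezf2+ve* against 0.138% ± 0.0934 (SD, n = 5) for *Fezf2−ve*, a difference of 0.230 percentage points that is smaller than the SD of the differences between libraries of 1 animal, 0.250. Within animals the *Fezf2+ve* share was 3.79, 1.23, 2.63, 1.07 and 6.67 times the *Fezf2−ve* share. By CPM, 33, 38, 46, 26 and 47 members were higher in *Fezf2+ve*, and 38, 22, 28, 22 and 14 in *Fezf2−ve*. Animal 1 thus had more members higher in *Fezf2−ve*, although its summed share was higher in *Fezf2+ve*. The count of 5 of 5 animals did not hold under every way of counting: it was 4 of 5 when the 10 most abundant genes of each library were left out of the denominator, with a difference of 0.456, 4 of 5 when the 27 members overlapping any RefSeq gene were left out, with a difference of 0.121, and 4 of 5 in counts downsampled to 89138 reads. Without *Ndufa13*, the member with the most reads, the difference was 0.161. Leaving out animal 1 lowered the difference to 0.128 percentage points. In bulk libraries such as these, fewer cells of a type and less RNA per cell cannot be told apart.

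The share of reads on short genes differed between the types in the other direction. Most members are short, with 74 of 85 (87.1%) spanning less than 20 kb, against 57.4% of all genes and 27.3% of tested genes. The median span was 7.28 kb over all members, 7.39 kb over tested members and 45.1 kb over the tested genes. Genes under 20 kb took 10.2% ± 3.33 (SD, n = 5) of gene reads for *Fezf2+ve* against 14.0% ± 3.39 (SD, n = 5) for *Fezf2−ve*, and were lower in the *Fezf2+ve* library of each animal. In animals 1 to 5 they took 14.4%, 12.1%, 10.3%, 5.84% and 8.18% in *Fezf2+ve* and 14.6%, 18.1%, 13.9%, 8.69% and 14.8% in *Fezf2−ve*. Animal 4, low for members in both types, was also the lowest for short genes in both. A part of gene span in the members' share was not tested.

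The number of members with a read was 50, 51, 60, 34 and 57 in *Fezf2+ve* and 63, 38, 61, 33 and 29 in *Fezf2−ve*, in the order of animals 1 to 5. It was higher in *Fezf2+ve* in 3 of 5 animals. After downsampling it was higher in 4 of 5.

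The second comparison tested each gene between the types with the animal as a block, using edgeR's quasi-likelihood test over the 7409 genes that reached 10 CPM in at least 2 libraries. Of the members, 64 passed this filter and 21 did not. No member was called at a false discovery rate of 0.1 or below, as was the case for all 7409 genes (0.0% called), and the smallest adjusted p of a member was 0.998 (edgeR quasi-likelihood, Benjamini-Hochberg). At an unadjusted p under 0.05 there were 3 members, all higher in *Fezf2+ve*, or 4.69% of the 64, against 120 of all tested genes (1.62%) in that direction. In the other direction there were 0 members, against 168 tested genes (2.27%). *Sdha*, among the 3, passed the filter through *Fezf2+ve* libraries alone, at 838, 16.9 and 26.4 CPM in animals 1, 3 and 4. Its highest *Fezf2−ve* value was 5.96 CPM. The filter thus favoured a fold change above 0 for *Sdha*, and nothing is concluded from these shares.

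Other fits gave different numbers of calls. Without the block, edgeR called 1 member, *Ndufa13*, among 279 genes (3.77%), with an adjusted p of 0.0931 (edgeR quasi-likelihood, Benjamini-Hochberg). With the default quasi-likelihood method of this edgeR version, also without the block, the member called was *Sdha*, with an adjusted p of 0.0763 among 638 genes (8.61%), and *Ndufa13* was at 0.115 (edgeR quasi-likelihood, Benjamini-Hochberg). Of 8 versions of the edgeR fit without the block, 2 called no member and none called more than 2, and they called between 40 and 646 genes. Over all alternatives the adjusted p ran from 0.0730 to 1 for both *Ndufa13* and *Sdha* (edgeR quasi-likelihood or DESeq2, Benjamini-Hochberg). With the block the default method called 0 members. DESeq2 with the block called 0 members among 98 genes, or 5.89% of the 1664 genes to which it gave an adjusted p, and it gave none to 53 of the 64 members.

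**Figure D2:**
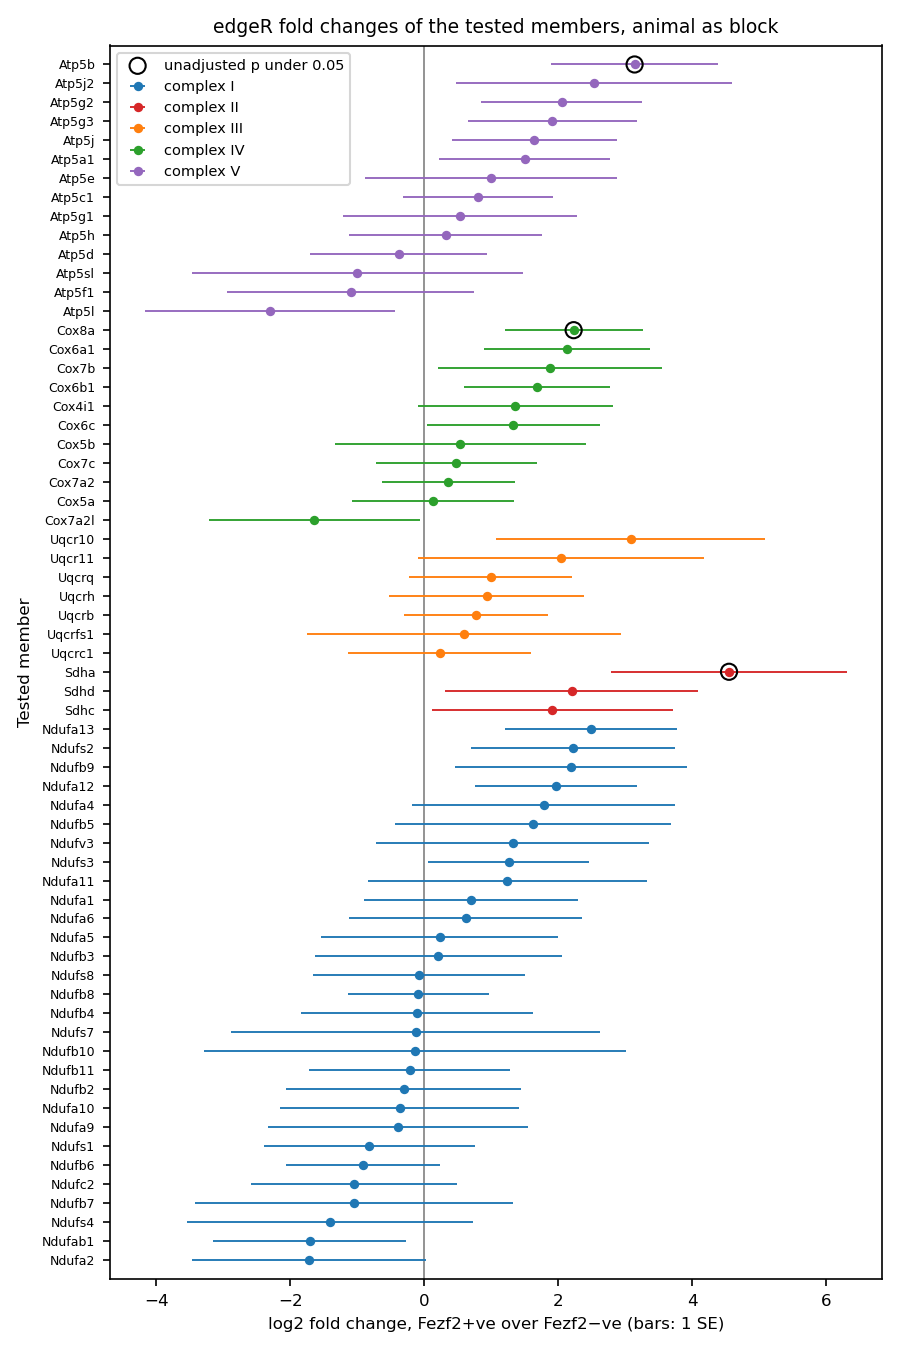
Log2 fold change of each of the 64 tested members, *Fezf2+ve* over *Fezf2−ve* with the animal as a block (edgeR), coloured by complex, with bars of 1 SE and circles around the 3 members with an unadjusted p under 0.05. Fold changes run from −2.30 for *Atp5l* to 4.55 for *Sdha*, and bars of most members are wide, with a median SE of 1.59.

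Fold changes of the tested members ranged from −2.30 to 4.55 on the log2 scale, with a median of 0.66, against −0.16 over all tested genes. They were above 0 for 43 members (67.2%) and below 0 for 21, while 45.7% of all tested genes were above 0. Among the members above 0, *Sdha*, *Sdhd*, *Atp5j2* and *Ndufa11* reached 10 CPM in *Fezf2+ve* libraries only, and *Ndufa6* in *Fezf2−ve* libraries only. The filter thus favoured a fold change above 0 for the first named, and nothing is concluded from these shares. With no filter the median was 0.66 over 79 members and −0.25 over all genes. With the filter, the median over tested members was 0.32 without animal 5 and 1.06 without animal 1. It was 1.37 over the 28 members that passed a stricter filter. Only 3 fold changes exceeded their SE by a factor of 2. By complex, the medians were −0.09 for the 29 tested members of complex I, 2.20 for the 3 of complex II, 0.93 for the 7 of complex III, 1.33 for the 11 of complex IV and 0.90 for the 14 of complex V. Complex I was divided, with 13 above 0 and 16 below, whereas complex IV had 10 above and 1 below. In complex II, *Sdha* and *Sdhd* passed the filter through *Fezf2+ve* libraries alone. *Sdhb*, with 2 reads in *Fezf2+ve* and 78 in *Fezf2−ve*, did not pass it. Nothing is concluded from the complex II median.

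Per animal, 6 of the 64 tested members (9.38%) were higher in the *Fezf2+ve* library of all 5, on the log2(CPM + 1) scale with library sizes scaled by TMM, against 125 of the 7409 tested genes (1.69%). These were *Atp5b*, *Atp5g2*, *Atp5j*, *Cox6a1*, *Cox8a* and *Ndufa13*. Without TMM scaling *Atp5j* was not among them, with 13.2 CPM in *Fezf2+ve* and 14.2 in *Fezf2−ve* of animal 4. In the other direction there were 0 of the 64, against 179 tested genes (2.42%), and the types did not overlap for 0 of the 64, against 108 tested genes (1.46%). With 5 pairs the smallest two-sided p of the exact paired permutation test is 0.06.

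**Figure D3:**
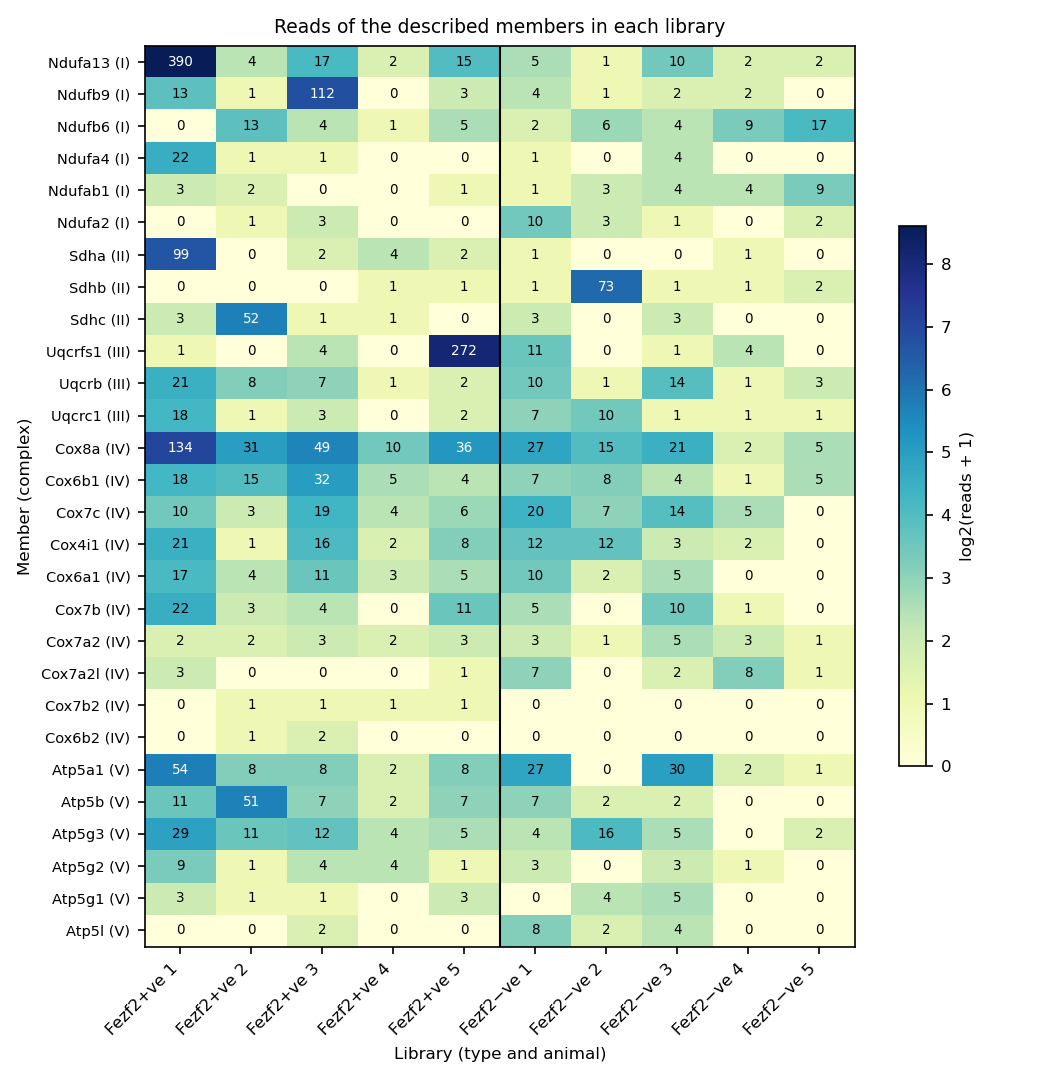
Reads of the members described in the text that had at least 1 read, by library (columns, *Fezf2+ve* on the left of the line) and member (rows, with the complex in brackets), coloured by log2(reads + 1). *Cox8a* is above 0 in all 10 libraries, while *Ndufa13*, *Uqcrfs1*, *Ndufb9*, *Sdha* and *Sdhb* each have 1 library with most of their reads.

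Complex I is the NADH dehydrogenase, the entry point for electrons from NADH. Its share of gene reads was 0.138% ± 0.169 (SD, n = 5) for *Fezf2+ve* against 0.0398% ± 0.0239 (SD, n = 5) for *Fezf2−ve*, higher in *Fezf2+ve* in 4 of 5 animals. Without *Ndufa13*, its member with the most reads, the means were 0.0670% and 0.0374%. *Ndufa13*, an accessory subunit also known as GRIM-19, lies on chromosome 8 at 69894163 to 69902558 (RefSeq, GRCm38.p6). In animals 1 to 5 it counted 390, 4, 17, 2 and 15 reads in *Fezf2+ve* and 5, 1, 10, 2 and 2 in *Fezf2−ve*, a log2 fold change of 2.49 ± 1.28 (SE) with an exact paired permutation p of 0.06. Library *Fezf2+ve* 1 held 87.1% of its reads, and the other 9 libraries, at 17 reads or fewer, overlapped between the types. The log2 fold change was 1.54 without animal 1 and 4.92 without the block.

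Most other complex I members were sparse. *Ndufb9*, an accessory subunit of the membrane arm, had 13, 1, 112, 0 and 3 reads in *Fezf2+ve* and 4, 1, 2, 2 and 0 in *Fezf2−ve*, with a log2 fold change of 2.19 ± 1.73 (SE). Only *Fezf2+ve* 3 was high, and leaving out single animals gave 0.96 to 3.19. *Ndufb6*, also in the membrane arm, had 0, 13, 4, 1 and 5 reads in *Fezf2+ve* and 2, 6, 4, 9 and 17 in *Fezf2−ve*, with a log2 fold change of −0.92 ± 1.15 (SE). No library stood far above the rest, the types overlapped, and leaving out single animals gave −1.49 to −0.58. *Ndufab1*, the mitochondrial acyl carrier protein, had 3, 2, 0, 0 and 1 reads in *Fezf2+ve* and 1, 3, 4, 4 and 9 in *Fezf2−ve*, with a log2 fold change of −1.71 ± 1.44 (SE), lower in *Fezf2+ve* in 4 of 5 animals and from −2.80 to −1.33 without single animals. *Ndufa2* had 4 reads in *Fezf2+ve* and 16 in *Fezf2−ve*, of which 10 were in *Fezf2−ve* 1.

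Complex II, succinate dehydrogenase, also works in the citric acid cycle. Of its 4 members 3 were tested, and its share of gene reads was 0.0307% ± 0.0383 (SD, n = 5) for *Fezf2+ve* against 0.0181% ± 0.0357 (SD, n = 5) for *Fezf2−ve*, higher in *Fezf2+ve* in 4 of 5 animals. Without *Sdha*, its member with the most reads, the order of the means turned, to 0.0129% and 0.0178%, with *Fezf2+ve* higher in 2 of 5. *Sdha*, the flavoprotein that oxidises succinate, on chromosome 13 at 74322255 to 74350240, had 99, 0, 2, 4 and 2 reads in *Fezf2+ve* and 1, 0, 0, 1 and 0 in *Fezf2−ve*. Its log2 fold change was 4.55 ± 1.76 (SE), with an unadjusted p of 0.0204 and an adjusted p of 0.998 (edgeR quasi-likelihood, Benjamini-Hochberg). *Sdha* passed the filter through *Fezf2+ve* libraries alone. *Fezf2+ve* 1 was high and the other 9 libraries had 4 reads or fewer. Without animal 1 the log2 fold change was 2.98, with an unadjusted p of 0.122 in the edgeR fit. Without animal 3 the unadjusted p was 0.0507.

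The iron-sulphur subunit and a membrane anchor had their reads in other libraries. *Sdhb*, the iron-sulphur subunit, had 0, 0, 0, 1 and 1 reads in *Fezf2+ve* and 1, 73, 1, 1 and 2 in *Fezf2−ve*, and it did not pass the filter. *Sdhc*, a membrane anchor, had 3, 52, 1, 1 and 0 reads in *Fezf2+ve* and 3, 0, 3, 0 and 0 in *Fezf2−ve*, with a log2 fold change of 1.91 ± 1.80 (SE) that was 0.51 without animal 2. The 3 subunits with the most reads in complex II were therefore each high in a different library, *Fezf2+ve* 1, *Fezf2−ve* 2 and *Fezf2+ve* 2.

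Complex III, the cytochrome bc1 complex, had 7 tested members, all with fold changes above 0 and none with an unadjusted p under 0.05. Its mean share was 0.0486% in *Fezf2+ve* and 0.0129% in *Fezf2−ve*, and 0.0210% and 0.0111% without *Uqcrfs1*, with *Fezf2+ve* higher in 4 of 5 animals both ways. *Uqcrfs1*, the Rieske iron-sulphur protein, had 1, 0, 4, 0 and 272 reads in *Fezf2+ve* and 11, 0, 1, 4 and 0 in *Fezf2−ve*, with a log2 fold change of 0.59 ± 2.34 (SE). It was high in *Fezf2+ve* 5 alone, which held 92.8% of its reads, and its fold change was −1.26 without animal 5. *Uqcrb*, which helps to bind ubiquinone, had 21, 8, 7, 1 and 2 reads in *Fezf2+ve* and 10, 1, 14, 1 and 3 in *Fezf2−ve*, with a log2 fold change of 0.77 ± 1.07 (SE). It was present in all 10 libraries, and the types overlapped. Without single animals its fold change ran from 0.32 to 1.11. *Uqcrc1*, a core protein, had 24 reads in *Fezf2+ve* and 20 in *Fezf2−ve*, with a log2 fold change of 0.23 ± 1.37 (SE), from −0.59 to 1.08 without single animals.

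Complex IV is cytochrome c oxidase. Its share of gene reads was 0.0913% ± 0.0724 (SD, n = 5) for *Fezf2+ve* against 0.0371% ± 0.0261 (SD, n = 5) for *Fezf2−ve*, higher in *Fezf2+ve* in 5 of 5 animals and also in 5 of 5 without *Cox8a*, its member with the most reads (means 0.0497% and 0.0274%). *Cox8a*, a small transmembrane subunit, lies on chromosome 19 at 7215158 to 7217616 and had the most reads per kb of gene span of all members, 134. In animals 1 to 5 it counted 134, 31, 49, 10 and 36 reads in *Fezf2+ve* and 27, 15, 21, 2 and 5 in *Fezf2−ve*, and its log2(CPM + 1) level was 8.17 ± 1.21 (SD, n = 5) against 5.94 ± 1.40 (SD, n = 5). The log2 fold change was 2.23 ± 1.03 (SE), with an unadjusted p of 0.0433 and an adjusted p of 0.998 (edgeR quasi-likelihood, Benjamini-Hochberg). The *Fezf2+ve* library was the higher in every animal, with an exact paired permutation p of 0.06, but *Fezf2+ve* 4 lay among the *Fezf2−ve* libraries. Leaving out each animal in turn gave log2 fold changes from 1.95 to 2.60. The unadjusted p was 0.0823, 0.0547, 0.0721 and 0.0835 without animals 1, 3, 4 and 5, and 0.136 with edgeR's default quasi-likelihood method, 0.0950 with no filter and 0.137 after downsampling.

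*Cox6b1*, on the side facing the intermembrane space, had 18, 15, 32, 5 and 4 reads in *Fezf2+ve* and 7, 8, 4, 1 and 5 in *Fezf2−ve*, with a log2 fold change of 1.69 ± 1.09 (SE). Animals 1 to 4 were higher in *Fezf2+ve* and animal 5 was not. *Cox6a1* had 17, 4, 11, 3 and 5 reads in *Fezf2+ve* and 10, 2, 5, 0 and 0 in *Fezf2−ve*, with a log2 fold change of 2.13 ± 1.24 (SE) and an exact paired permutation p of 0.06. All 5 animals were higher in *Fezf2+ve*, with overlapping types. *Cox7c* had 10, 3, 19, 4 and 6 reads in *Fezf2+ve* and 20, 7, 14, 5 and 0 in *Fezf2−ve*, with a log2 fold change of 0.48 ± 1.20 (SE), from −0.23 to 0.98 without single animals. The order of the types differed among animals. *Cox7a2l*, which takes part in joining complexes III and IV into supercomplexes, had the only fold change below 0 among the tested complex IV members, −1.64 ± 1.57 (SE), from 4 reads in *Fezf2+ve* and 18 in *Fezf2−ve*. Without single animals this ran from −2.33 to −0.85.

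Complex V, the ATP synthase, had a share of 0.0582% ± 0.0410 (SD, n = 5) for *Fezf2+ve* against 0.0298% ± 0.0236 (SD, n = 5) for *Fezf2−ve*, higher in *Fezf2+ve* in 5 of 5 animals, also without *Atp5a1* (means 0.0452% and 0.0227%). *Atp5b*, the catalytic beta subunit, on chromosome 10 at 128083307 to 128090388, had 11, 51, 7, 2 and 7 reads in *Fezf2+ve* and 7, 2, 2, 0 and 0 in *Fezf2−ve*. Its log2 fold change was 3.14 ± 1.25 (SE), with an unadjusted p of 0.0205 and an adjusted p of 0.998 (edgeR quasi-likelihood, Benjamini-Hochberg). *Fezf2+ve* 2 was high, with 57.3% of the reads, and *Fezf2−ve* 1 overlapped the *Fezf2+ve* libraries. Without single animals the log2 fold change ran from 2.71 to 3.79, and without animal 2 it was 2.81, with an unadjusted p of 0.0708 in the edgeR fit. After downsampling the unadjusted p was 0.0949.

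*Atp5a1*, the alpha subunit, had 54, 8, 8, 2 and 8 reads in *Fezf2+ve* and 27, 0, 30, 2 and 1 in *Fezf2−ve*, with a log2 fold change of 1.5 ± 1.28 (SE), from 0.91 to 2.25 without single animals. Animals 1 and 3 were high in *Fezf2−ve*, and the types overlapped. *Atp5l*, subunit g of the membrane part, had 2 reads in *Fezf2+ve*, both in animal 3, and 8, 2, 4, 0 and 0 in *Fezf2−ve*, with a log2 fold change of −2.30 ± 1.87 (SE), the lowest of the tested members, and from −3.86 to −1.46 without single animals.

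The reads of several members were concentrated in 1 library. More than 50% of the reads were in a single library for 20 of the 79 detected members, and for 7 of the 18 with at least 50 reads. Among tested members the share was 20.3%, against 44.3% of all tested genes. When these 20 members were left out, a choice made after the values had been seen, the summed share was 0.192% in *Fezf2+ve* and 0.106% in *Fezf2−ve*, a difference of 0.0861 percentage points, and was higher in *Fezf2+ve* in 5 of 5 animals.

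**Figure D4:**
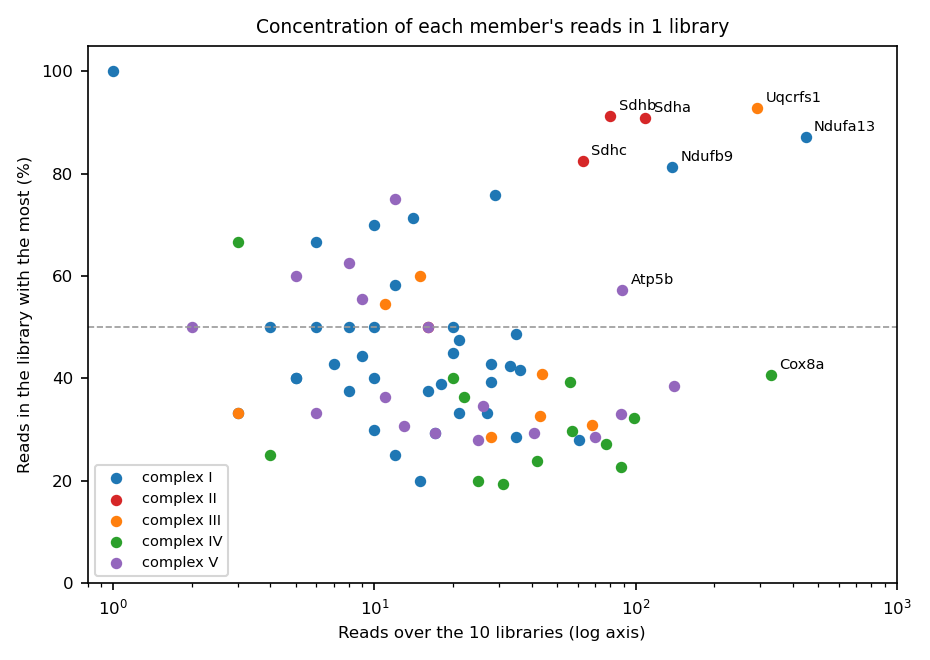
Percentage of each member's reads that lay in its library with the most reads, against its reads over the 10 libraries (log axis), coloured by complex, with a dashed line at 50%. *Ndufa13*, *Uqcrfs1*, *Ndufb9*, *Sdha*, *Sdhb*, *Sdhc* and *Atp5b* lie above the line with at least 50 reads, while *Cox8a* lies below it at 40.6%.

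Several subunits have paralogues used in particular tissues, and the reads lay almost entirely on the forms that are broadly expressed. *Cox4i1* had 77 reads and *Cox4i2*, the lung form, 0. *Cox6a1* had 57 and the heart and muscle form *Cox6a2* 0, and *Cox7a2* had 25 and the heart and muscle form *Cox7a1* 0. *Cox8a* had 330 while *Cox8b* and *Cox8c* had 0. The testis forms *Cox6b2* and *Cox7b2* had 3 and 4 reads, all in *Fezf2+ve*, beside 99 for *Cox6b1* and 56 for *Cox7b*. *Ndufa4* had 29, of which 22 were in *Fezf2+ve* 1, and *Ndufa4l2* had 0. At 0 in every library, *Cox4i2*, *Cox6a2*, *Cox7a1*, *Cox8b*, *Cox8c* and *Ndufa4l2* were not detectable at this depth.

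The 3 genes for the c-ring of ATP synthase, which encode the same mature protein, were all detected. Per kb of gene span, *Atp5g3* had 21.9 reads, *Atp5g1* 5.86 and *Atp5g2* 3.18 over the 10 libraries. In reads not scaled by span the order of the last 2 was the other way, with 88 for *Atp5g3*, 17 for *Atp5g1* and 26 for *Atp5g2*. By the authors' account the libraries are biased to the 3' end, so that scaling by gene length is not needed. They also report high rates of mapping to introns in both types. The part of intronic reads in the counts used here was not tested. *Atp5g3* had 29, 11, 12, 4 and 5 reads in *Fezf2+ve* and 4, 16, 5, 0 and 2 in *Fezf2−ve*, with a log2 fold change of 1.91 ± 1.26 (SE), from 1.41 to 2.66 without single animals. *Atp5g2* had 9, 1, 4, 4 and 1 reads in *Fezf2+ve* and 3, 0, 3, 1 and 0 in *Fezf2−ve*, with a log2 fold change of 2.05 ± 1.20 (SE) and an exact paired permutation p of 0.06. The types overlapped for both genes.

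Some counts may be shared with other genes. The last 200 bases of a transcript matched another gene over at least 150 bases at 95% identity or more for 6 members, *Atp5g1*, *Atp5g2*, *Cox6a1*, *Cox7c*, *Ndufb6* and *Uqcrc2*, so that their counts are uncertain. The spans of 18 members overlapped another gene of the count table, and use of strand in counting is not given in the sources used here. *Tssk6*, which overlaps *Ndufa13*, had 0 reads, and *Haus1*, which overlaps *Atp5a1*, had 3. Other neighbours had more: 18 reads for *Tmem30a* beside 25 for *Cox7a2*, 19 for *Gdf9* beside 28 for *Uqcrq*, 19 for *Rbm10* beside 21 for *Ndufb11*, 24 for *Ankrd12* beside 6 for *Ndufv2* and 16 for *Ino80dos* beside 15 for *Ndufs1*.

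Sequence shared by member promoters was described from RefSeq windows (GRCm38.p6) of 250 bases before to 50 after the start, found for 70 of the 85 members. The letters GCGCATGC, the core of the NRF1 site, were present on either strand in 10 members (14.3%), against 3.94% of the 17492 protein-coding genes with such a window in RefSeq. CCGGAAG, an ETS core, was present in 16 members (22.9%) against 12.9%, and AGATGGC, a YY1 core, in 13 (18.6%) against 6.95%. TATAAA was present in 7 members (10%) against 14.8%. Median GC content was 57.8% in members and 56.3% in these protein-coding genes. NRF1 and the ETS protein GABP are known regulators of respiratory genes. A match describes letters in the window and not a bound site.

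Promoters are printed for *Cox8a*, *Cox6a1* and *Atp5b*, which were higher in the *Fezf2+ve* library of all 5 animals and differ in the motifs they hold. Capitals mark the NRF1, ETS and YY1 cores on either strand. The *Cox8a* window, chr19:7217567-7217866 on the minus strand, holds the ETS core at 2 places. The *Cox6a1* window, chr5:115348909-115349208 on the minus strand, holds the NRF1 core on both strands, overlapping, and the ETS core once. The *Atp5b* window, chr10:128083057-128083356 on the plus strand, holds none of the 3.
Cox8a: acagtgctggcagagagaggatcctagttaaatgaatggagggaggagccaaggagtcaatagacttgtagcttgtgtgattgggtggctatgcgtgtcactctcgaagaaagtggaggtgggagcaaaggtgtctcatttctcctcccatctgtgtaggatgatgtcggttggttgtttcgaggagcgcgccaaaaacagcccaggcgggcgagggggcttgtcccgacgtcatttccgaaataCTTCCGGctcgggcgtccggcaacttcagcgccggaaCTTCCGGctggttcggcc
Cox6a1: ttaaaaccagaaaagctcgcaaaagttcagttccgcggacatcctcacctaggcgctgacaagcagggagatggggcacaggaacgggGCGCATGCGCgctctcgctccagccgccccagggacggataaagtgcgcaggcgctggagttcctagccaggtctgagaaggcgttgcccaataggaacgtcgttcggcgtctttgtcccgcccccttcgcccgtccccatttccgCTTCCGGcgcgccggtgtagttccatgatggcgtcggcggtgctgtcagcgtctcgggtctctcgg
Atp5b: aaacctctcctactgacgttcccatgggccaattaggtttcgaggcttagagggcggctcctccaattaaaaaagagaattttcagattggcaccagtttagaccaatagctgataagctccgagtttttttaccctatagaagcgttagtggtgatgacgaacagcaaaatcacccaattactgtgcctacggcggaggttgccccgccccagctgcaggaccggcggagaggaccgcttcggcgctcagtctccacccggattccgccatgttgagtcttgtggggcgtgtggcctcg

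Genes of neighbouring pathways were read from the same edgeR fit, which called 0 of them at a false discovery rate of 0.1 or below. Of 53 assembly factors 19 were tested, with a median log2 fold change of 0.12, and 0 had an unadjusted p under 0.05 in either direction. The 31 genes of electron carriers and exchange had 20 tested and a median of 0.20, also with 0. Of 22 glycolysis genes 15 were tested, with a median of 0.71 and 0, while 491 of the 641 reads of the most abundant, *Ldhb*, were in *Fezf2+ve* 1. The 77 mitochondrial ribosomal genes had 22 tested and a median of −0.14, and the 34 import genes had 12 tested and a median of −0.19, with 0 in both lists. Mitochondrially encoded subunits were represented by 0 genes in the count table.

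The citric acid cycle, regulators and cytoplasmic ribosomal lists had genes with an unadjusted p under 0.05. Of 19 citric acid cycle genes 17 were tested, with a median of 0.20 and 1 such gene, *Idh2*, the mitochondrial isocitrate dehydrogenase that makes NADPH, with 0 reads in every *Fezf2+ve* library and 3, 40, 3, 2 and 0 in *Fezf2−ve*. Of 18 regulators 7 were tested, with a median of −0.03 and 1 such gene, *Sirt3*, a mitochondrial deacetylase, with 74 and 2 reads in *Fezf2+ve* 1 and 2 and 0 in the other 8 libraries. Of 96 cytoplasmic ribosomal genes 89 were tested, with a median of −0.51 and 3 such genes, all lower in *Fezf2+ve*. One was *Rps9*, with 1, 4, 1, 1 and 6 reads in *Fezf2+ve* and 14, 8, 32, 5 and 27 in *Fezf2−ve*, higher in *Fezf2−ve* in all 5 animals. The other 2, *Rps27* and *Rps27rt*, had identical counts in every library, with 29 of 32 reads in *Fezf2−ve* 3. *Idh2*, *Rps27* and *Rps27rt* reached 10 CPM in *Fezf2−ve* libraries only, and *Sirt3* in *Fezf2+ve* libraries only. Each of these passed the filter through the type where it was high, and nothing is concluded from its p.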

How the data were processed

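Demultiplexing, trimming, alignment against mm10 by TopHat2 2.1.1 and counting over RefFlat genes by bedtools 2.26.0 were done by the authors (versions from the submitters' processing notes). The deposited tables hold raw counts for genes and ERCC transcripts, without normalization. Another deposited table holds the authors' DESeq2 comparison (means, fold changes, standard errors, Wald statistics and p-values) and was not used.

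Counts were fitted with edgeR 4.0.16 in R 4.3.3 (TMM scaling, at least 10 CPM in at least 2 libraries, quasi-likelihood test, animal as a block, Benjamini-Hochberg adjustment over 7409 genes, false discovery rate at or below 0.1). Which quasi-likelihood fit to use was settled after the results of several had been seen. The default and the newer method, robust estimation, trended dispersions and kept or recomputed library sizes were each run with and without the block. The newer method with recomputed library sizes was kept because its counts of calls matched those given earlier for these data, and it is not the default of this edgeR version. With the block, 0 genes were called in each of 8 fits. Without it the 8 fits called from 40 to 646 genes and from 0 to 2 members, and the default method is given among the alternatives with and without the block. DESeq2 1.42.0 was another alternative. The script was tested on simulated data. Levels per library are log2(CPM + 1) with TMM-scaled library sizes, and exact paired permutation tests were two-sided. Copies were searched with blastn 2.17.0 in GENCODE transcripts. Symbols of 85 members were matched to RefSeq. Gene reads per library ranged from 89138 to 217738.

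Libraries were paired because the labels and methods give both from 1 animal. Deviations from the type means correlated at 0.029 on average (from −0.027 to 0.097) between libraries of 1 animal and at −0.007 between animals.

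Members described were the 3 with the most reads in each complex, the 5 with the smallest p in each direction, those with an unadjusted p under 0.05, the tissue paralogues, and members at 0. Of neighbouring lists, genes with an unadjusted p under 0.05 and the most abundant gene where stated were named. Members and lists were chosen with earlier results of these data known, and the cytoplasmic ribosomal list was added to the planned ones, while 1 planned list of cell type markers is not reported. Other genes named in passing were chosen after their values were seen.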

Additional observations from a re-analysis of the deposited data

Results flagged for a closer look

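In 64 groups of 5 libraries examined, covering the summed shares, the number of members detected and the log2(CPM + 1) levels of the tested members described, 5 groups had a library far from the others of its type, with a gap to the nearest value above 0.71 of the range. Chance gives about 1 in 20 groups if the 5 values are independent and normally distributed. This was not checked, and levels at 0.0 in several libraries depart from it. The groups also share libraries, so that nothing is concluded from the number of groups. The share of gene reads on complex II was 0.0819% in *Fezf2−ve* 2, against 0.00357% in the next library, and 73 of its reads were on *Sdhb*. *Atp5a1* had a level of 8.79 in *Fezf2+ve* 1, against 5.81 in the next. *Atp5l* had a level of 3.89 in *Fezf2+ve* 3, from 2 reads, and 0.0 in the other 4. In *Fezf2−ve* 5, *Cox7c* was at 0.0 against 5.31 in the next lowest, and *Ndufb9* at 0.0 against 3.27. *Fezf2−ve* 5 also had the lowest summed share on members. The causes were not tested.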

How the results depend on the processing

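The number of members called at a false discovery rate of 0.1 or below was 0 with TMM, with other size factors, with library size only, with no filter, with a stricter filter, after downsampling, by DESeq2, by edgeR's default quasi-likelihood method, at a threshold of 0.05 and without each animal in turn (0 to 0). Without the animal block, which undoes the pairing, it was 1 (*Ndufa13*), and the count over all genes was 279. With edgeR's default quasi-likelihood method and no block it was also 1, but *Sdha*, and the count over all genes was 638. Over 8 versions of the fit without the block, run before 1 was kept, the counts were 0 to 2 members and 40 to 646 genes. DESeq2 with the block called 98 genes. Leaving out each animal gave 0 to 0 genes. At an unadjusted p under 0.05 the members numbered 3, and between 1 and 8 in the alternatives.

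The median log2 fold change of tested members was above 0 in each alternative run. It was 1.37 under the stricter filter, where 28 members were tested, and from 0.32 to 1.06 without each animal in turn. The difference in summed share ran from 0.128 to 0.286 percentage points without each animal. It was 0.456 without the 10 most abundant genes of each library, 0.161 without *Ndufa13* and 0.121 without the 27 members overlapping any RefSeq gene. It was 0.224 with TMM-scaled gene reads, an alternative added after seeing the data, as were the default quasi-likelihood method (with and without the block) and leaving out members with most reads in 1 library.

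Of 25 described members that were tested, 20 kept their sign in every alternative run. The sign changed for *Atp5g1* without the block (−0.01). Without each animal in turn, fold changes ran from −0.52 to 1.81 for *Atp5g1*, 0.00 to 0.50 for *Cox7a2*, −0.23 to 0.98 for *Cox7c*, −0.59 to 1.08 for *Uqcrc1* and −1.26 to 2.39 for *Uqcrfs1*. The causes were not tested. Detected members had a median of 20 reads and tested members a median standard error of 1.59. The parts of depth and of spread between libraries in this were not tested.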
